A study of Mus musculus with 12 samples.

Results

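Of the subunit genes of interleukin-6 (IL-6) family receptors, 4 were followed here in mouse liver. They included Il6ra, the IL-6-binding receptor chain, and Il6st, which encodes the shared signal transducer gp130. The others were Osmr, the oncostatin M receptor chain, and Lifr, the leukemia inhibitory factor receptor chain. All probe sets that the platform annotation assigns to 1 of these symbols were taken, which gave 4 of the 8251 genes with a symbol of their own and 9 of the 12488 probe sets of the array: 1 for Il6ra, 2 for Il6st, 1 for Osmr and 5 for Lifr. The rule picks probe sets by gene name, and the 4 genes were chosen with earlier results of these data known. Of the 9 probe sets, 8 passed the filter on low values and were tested. The remaining Lifr probe set, 104657_at, read between 19.6 and 28.3, below the floor of 33.0, on all 12 arrays.

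IL-6 binds its own receptor chain, and the pair then engages gp130 to switch on Janus kinases and the transcription factor STAT3. Oncostatin M and leukemia inhibitory factor use the same gp130 together with the Osmr or Lifr chain. In hepatocytes this signal drives the acute phase genes, and it is limited by SOCS3, an inhibitor that STAT3 induces and that binds gp130 itself.

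The study hybridised total liver RNA to 12 arrays, 2 for each of 6 groups, taken 4 h after the mice had been injected intraperitoneally. Control mice were albumin-cre(-) Socs3(w/fl), with 1 wild-type and 1 floxed Socs3 allele and no Cre. They were given phosphate-buffered saline (PBS) or IL-6. Socs3-deleted mice were albumin-cre(+) Socs3(-/fl) and received the same injections. In these the albumin promoter directs Cre to hepatocytes, so that the other liver cells keep the floxed allele beside 1 null allele. The 2 remaining groups were Interferon-gamma-/- mice, called Ifng-null below, given PBS or interferon-gamma (IFN-γ). These mice lack the cytokine throughout the body and received no IL-6. The sources used here do not give age, strain background or cytokine dose. Nothing in the labels says that the 2 replicates of a group were separate mice, so that the p-values below measure only the spread between these arrays, and with 2 arrays in a group every value is imprecise.

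Array medians of intensity were 80.6 to 85.7. Pearson's r between the replicates of a group was 0.977 to 0.987 over the 9641 tested probe sets, on log2 values after the floor. All 9 hepatocyte markers on the array lay above the floor on all 12 arrays, with sums of 46567 to 60750. The T cell markers Cd3d, Cd3g and Cd8a were below the floor throughout. In 2 libraries, control PBS replicate 2 and Socs3-deleted PBS replicate 2, the sum of 5 pancreatic exocrine markers was 7409 and 16315, against 1086 to 1400 on the other 10 arrays. Calls are therefore given below with and without these 2 arrays. The sum of 3 erythroid markers also set libraries apart: it was 7088 and 5471 on these 2 arrays and 4293 and 4224 on replicate 2 of control and of Socs3-deleted livers after IL-6, against 677 to 2410 on the other 8. The part of red cell RNA in the results was not tested. Socs3 itself was lower in the Socs3-deleted mice: averaged over both injections its 2 probe sets fell by 0.68 ± 0.12 (92232_at) and 0.65 ± 0.12 (162206_f_at) on the log2 scale (4 against 4 arrays, SE; limma, adjusted p = 0.0462 and 0.0441). Whether these probe sets lie within the deleted stretch is not known.

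Of the members, Osmr was the only one with a called difference, higher in Socs3-deleted than in control livers, and its promoter shares a stretch with that of the common subunit Il6st, so these 2 sequences are shown. They come from RefSeq (GRCm38.p6) and cover the 250 bases before the transcript start, 5′ to 3′ on the gene's strand: chr15:6874314-6874563, minus strand, for Osmr and chr13:112463820-112464069, plus strand, for Il6st. Capitals mark matches to the letters TTNNNNNAA, the spacing common to many STAT-bound elements.
Osmr: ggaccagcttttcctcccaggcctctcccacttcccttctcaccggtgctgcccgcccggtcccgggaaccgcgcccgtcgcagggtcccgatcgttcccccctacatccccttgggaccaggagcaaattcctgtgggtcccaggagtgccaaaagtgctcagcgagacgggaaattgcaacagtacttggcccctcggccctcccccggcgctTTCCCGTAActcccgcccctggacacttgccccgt
Il6st: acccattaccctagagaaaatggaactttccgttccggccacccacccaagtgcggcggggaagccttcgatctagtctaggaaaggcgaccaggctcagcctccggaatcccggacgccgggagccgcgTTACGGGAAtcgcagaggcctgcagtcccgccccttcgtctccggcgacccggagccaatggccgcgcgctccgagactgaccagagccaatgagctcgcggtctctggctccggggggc
The Osmr match, TTCCCGTAA, lies at positions -35 to -27 from the start, and the Il6st match, TTACGGGAA at -120 to -112, holds the same 9 bases on the opposite strand. The stretch was singled out after it was seen, and 32 of the 32851 mouse promoter windows of this length (0.0974%) hold it on either strand. The looser pattern TTNNNNNAA is common: it was found in 4 of the 5 member windows, which include 2 for Lifr, and in 55.2% of all windows. The stricter palindrome TTCNNNGAA was in none of the 5 windows and in 7.02% of all, and TTGCNNCAA, a form bound by C/EBP factors, was in none and in 1.74% of all. Both strands were searched, and TTCCCGTAA and TTCNNNGAA are special cases of the looser pattern. The annotated Osmr gene reaches 655 bases further upstream than the transcript start used here, so other Osmr transcripts begin outside this window. The matches describe letters only.

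Il6ra, which makes the liver responsive to IL-6, gave steady values over the 6 groups. The probe set 104268_at read 238 and 227 in control livers after PBS and 189 and 217 after IL-6. In Socs3-deleted livers it read 278 and 304 after PBS and 234 and 254 after IL-6. Within each genotype both arrays after IL-6 were below both after PBS, and under each injection both Socs3-deleted arrays were above both control arrays. The share of all tested probe sets with such orders was not counted. Ifng-null livers gave 259 and 191 after PBS and 264 and 274 after IFN-γ, with no overlap but with a wide spread after PBS.

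No Il6ra difference passed the test. After IL-6 its log2 change was -0.20 in control and -0.25 in Socs3-deleted livers (SE 0.15 each; limma, adjusted p = 1 and 0.64), and the 2 responses differed by -0.06 with an interval of -0.52 to 0.41. Socs3-deleted against control livers, averaged over both injections, gave 0.30 ± 0.10 (SE; 95% interval 0.06 to 0.53; limma, adjusted p = 0.33). In the order of group means, Socs3-deleted after PBS (291 ± 18.8, SD, n = 2) stood first, followed by Ifng-null after IFN-γ (269 ± 7.33) and Socs3-deleted after IL-6 (244 ± 14.3). The arrays of these 3 neighbours did not overlap, while each lower neighbour overlapped the next, down to control after IL-6 (203 ± 20.2).

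Il6st, the gp130 chain that all receptors of the family share, was read by 2 probe sets. The brighter one, 94345_at, read 292 and 171 in control livers after PBS and 339 and 320 after IL-6. In Socs3-deleted livers it read 300 and 414 after PBS and 325 and 442 after IL-6. Ifng-null livers gave 220 and 216 after PBS and 318 and 342 after IFN-γ. The lowest values were thus those of the 4 arrays from PBS-injected control and Ifng-null mice, and the other 8 arrays all read higher. How common this split is among all tested probe sets was not counted. The Socs3-deleted livers reached the same range after PBS as after IL-6, with overlapping arrays.

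None of these Il6st differences was called. The log2 change after IL-6 was 0.56 ± 0.25 in control livers and 0.10 ± 0.25 in Socs3-deleted livers (SE; limma, adjusted p = 1 and 0.991), and the difference between the responses was -0.46 with an interval of -1.24 to 0.33. After IFN-γ it was 0.60 ± 0.25 (limma, adjusted p = 0.661), and Socs3-deleted against control livers after PBS gave 0.66 ± 0.25 (limma, adjusted p = 0.951). The array that read 171, control PBS replicate 2, carries the pancreatic signal, as does Socs3-deleted PBS replicate 2, which read 414. Without these 2 arrays the Il6st difference after PBS was 0.04 and the response to IL-6 was 0.18 in control and 0.34 in Socs3-deleted livers. Without control PBS replicate 1 alone the Il6st difference after PBS was 1.04 and the response of control livers 0.94, so single arrays set the size of both. The second probe set, 98349_at, read from 64.1 to 235 over the 12 arrays, and all its groups overlapped their neighbours in the order of means. Its changes were smaller, 0.32 ± 0.45 after IL-6 in control livers and 0.19 ± 0.45 after IFN-γ, so the pattern of 94345_at was not measured again by the second probe set. Across the 12 arrays, which share their groups, the 2 probe sets correlated with Pearson's r = 0.545.

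Osmr, the chain through which hepatocytes respond to oncostatin M, was dim but differed between the groups. The probe set 102255_at read 27.3 and 23.3 in control livers after PBS, both below the floor, and 35.7 and 40.1 after IL-6. In Socs3-deleted livers it read 47.0 and 55.0 after PBS and 68.4 and 99.8 after IL-6. Ifng-null livers gave 36.4 and 33.9 after PBS and 50.5 and 63.6 after IFN-γ. All 4 Socs3-deleted arrays were thus above all 4 control arrays, and within each of the 3 genotypes both cytokine-injected arrays were above both PBS arrays. How many of all tested probe sets share the order by cytokine was not counted.

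Between the genotypes the Osmr difference passed the test. After IL-6 it was 84.1 ± 22.2 in Socs3-deleted and 37.9 ± 3.10 in control livers (SD, n = 2 each), a log2 difference of 1.13 ± 0.18 (SE; 95% interval 0.72 to 1.54) or 2.18-fold (limma, adjusted p = 0.0255). Averaged over both injections the log2 difference was 0.87 ± 0.13 (limma, adjusted p = 0.0186), at least 1.83-fold, since both control PBS arrays enter at the floor. After PBS alone Socs3-deleted livers (51.0 ± 5.69) were at least 1.54-fold above control livers (25.3 ± 2.82), with a log2 difference of 0.62 ± 0.18 that was not called (limma, adjusted p = 0.772). An F test over the 6 groups also called Osmr (F = 15.4; limma, adjusted p = 0.0249). A group held at the floor shows no spread, and 1 spread is estimated from all 12 arrays. The SE may therefore be too small in every Osmr comparison, also in the one after IL-6.

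The cytokine responses of Osmr did not pass the test. In Socs3-deleted livers the log2 change after IL-6 was 0.70 ± 0.18 (95% interval 0.29 to 1.11; limma, adjusted p = 0.14), or 1.62-fold. In control livers it was 0.20 ± 0.18 (limma, adjusted p = 1), at least 1.15-fold against the floor. The 2 responses differed by 0.50 ± 0.26 (95% interval -0.08 to 1.08; limma, adjusted p = 0.999), so a difference between them was not shown. In Ifng-null livers IFN-γ gave 0.69 ± 0.18 (95% interval 0.28 to 1.10; limma, adjusted p = 0.253), or 1.61-fold, from 35.2 ± 1.76 to 57.1 ± 9.22.

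In the order of Osmr means, Socs3-deleted after IL-6 stood first, then Ifng-null after IFN-γ, Socs3-deleted after PBS, control after IL-6, Ifng-null after PBS and control after PBS. Ifng-null after IFN-γ and Socs3-deleted after PBS overlapped, as did control after IL-6 and Ifng-null after PBS. The other 3 steps in this order were free of overlap.

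**Figure D1:**
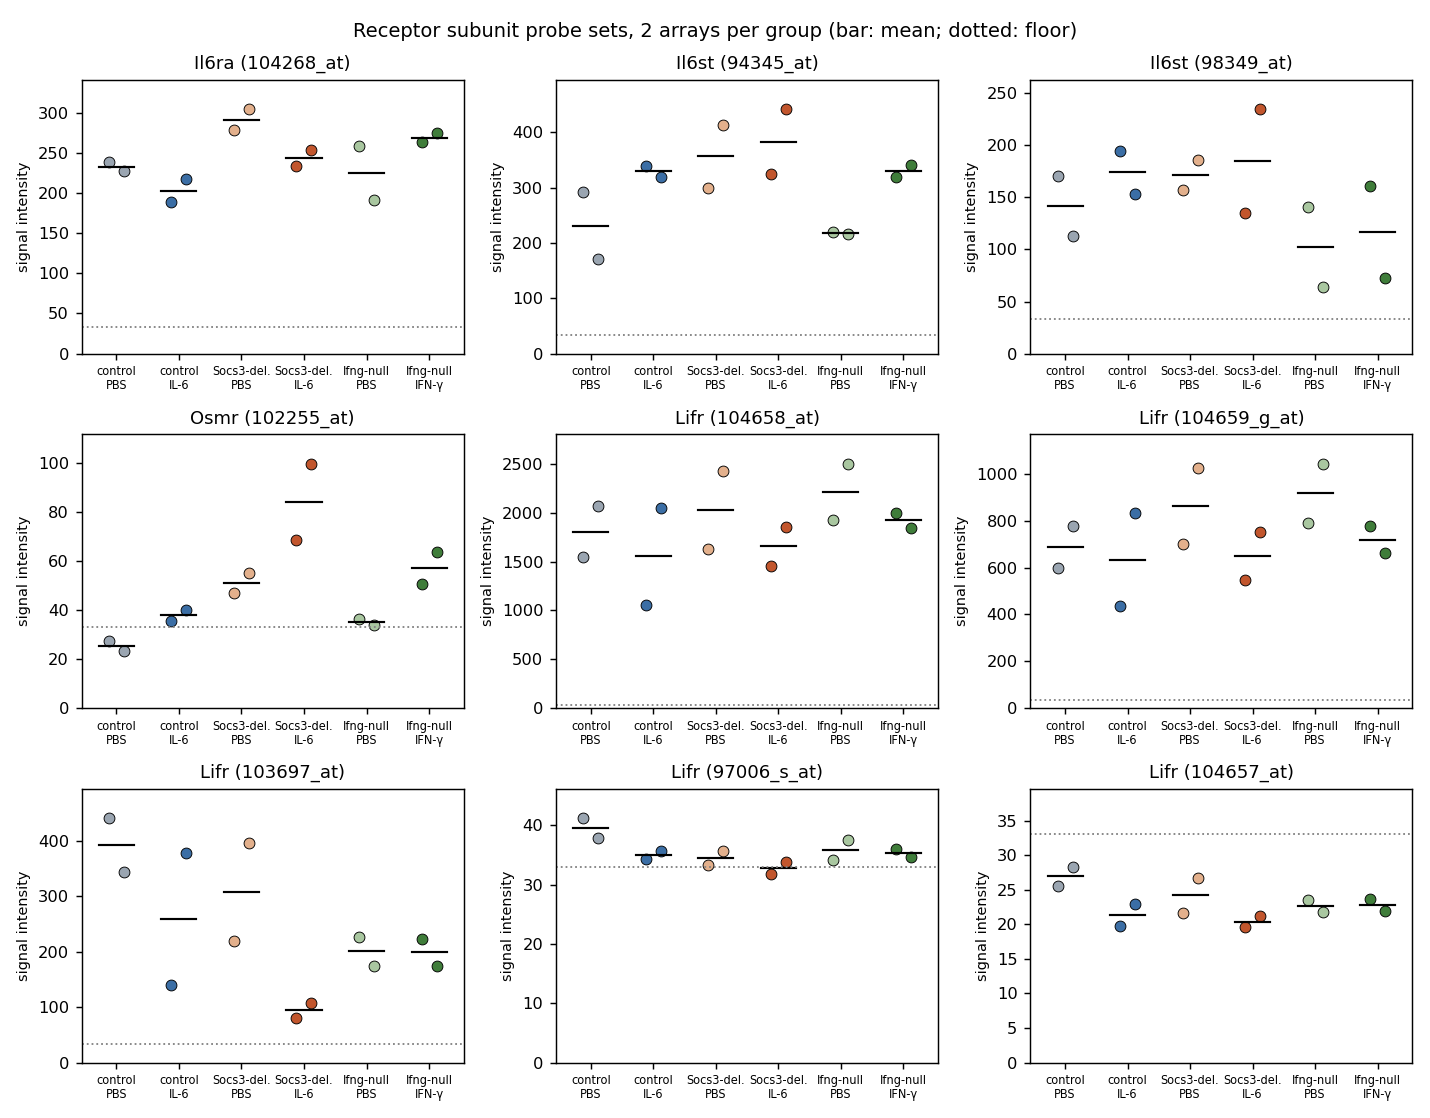
Signal intensity (linear scale, vertical axis from 0) of the 9 receptor subunit probe sets in the 6 groups; points are arrays, bars are means of 2 arrays and the dotted line is the floor of 33.0. Osmr runs from 23.3 to 99.8 with all 4 Socs3-deleted arrays above all 4 control arrays, while Lifr 104657_at stays below the floor.

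The Osmr calls depended on single libraries. The call after IL-6 ended without Socs3-deleted IL-6 replicate 2 (log2 difference 0.85; limma, adjusted p = 0.109), without control IL-6 replicate 1 or 2 (0.13 and 0.175), without control PBS replicate 1 or 2 (0.059 each) and without Ifng-null PBS replicate 1 or 2 (0.0503 each). Without the 2 arrays with pancreatic signal the Osmr difference after IL-6, which those arrays do not enter, had the same size of 1.13, and its limma adjusted p was 0.106. Averaged over both injections it was then 0.74 (limma, adjusted p = 0.245). That call also ended without Socs3-deleted PBS replicate 2 (0.0778), control IL-6 replicate 1 or 2 (0.0541 and 0.0708) and control PBS replicate 1 or 2 (0.0697 and 0.0923).

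Markers of liver cell types were set beside Osmr, because in whole liver more cells of a type and more RNA per cell cannot be told apart. The sum of 11 Kupffer cell and macrophage markers was 3846 and 3257 in Socs3-deleted livers after IL-6 and 2460 and 2473 in control livers after IL-6. After PBS it was 2656 and 3228 in Socs3-deleted and 2521 and 2187 in control livers, so all 4 Socs3-deleted arrays were above all 4 control arrays, as for Osmr. Of these 11 markers 10 had a positive log2 difference between the genotypes after IL-6 (median 0.43, against -0.01 for all 9641 tested probe sets), and 1 of them passed the test, Cd14, a co-receptor for bacterial lipopolysaccharide (1.44 ± 0.13, SE; limma, adjusted p = 0.000868). After IFN-γ, where both Osmr arrays also exceeded both PBS arrays, 3 of the 11 were positive with a median of -0.08, and their sums were 2013 and 2770 against 2316 and 2938. The 8 endothelial markers summed to 1816 and 1374 in Socs3-deleted and 1322 and 1437 in control livers after IL-6, and the 7 stellate cell and fibroblast markers to 2483 and 2106 against 1882 and 2264, both with overlap. After PBS both sums were higher in Socs3-deleted livers without overlap. The endothelial sums were then 1546 and 1428 against 1406 and 1343, and the stellate cell and fibroblast sums 2245 and 2648 against 1847 and 2103. The 9 hepatocyte markers summed to 52131 and 50144 in Socs3-deleted and 54323 and 56482 in control livers after IL-6, lower without overlap. After PBS their sums overlapped, at 60750 and 58176 against 59557 and 57391. In Ifng-null livers they were 46567 and 50521 after IFN-γ and 56930 and 56214 after PBS. The part of these cell types in the Osmr difference was not tested.

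**Figure D2:**
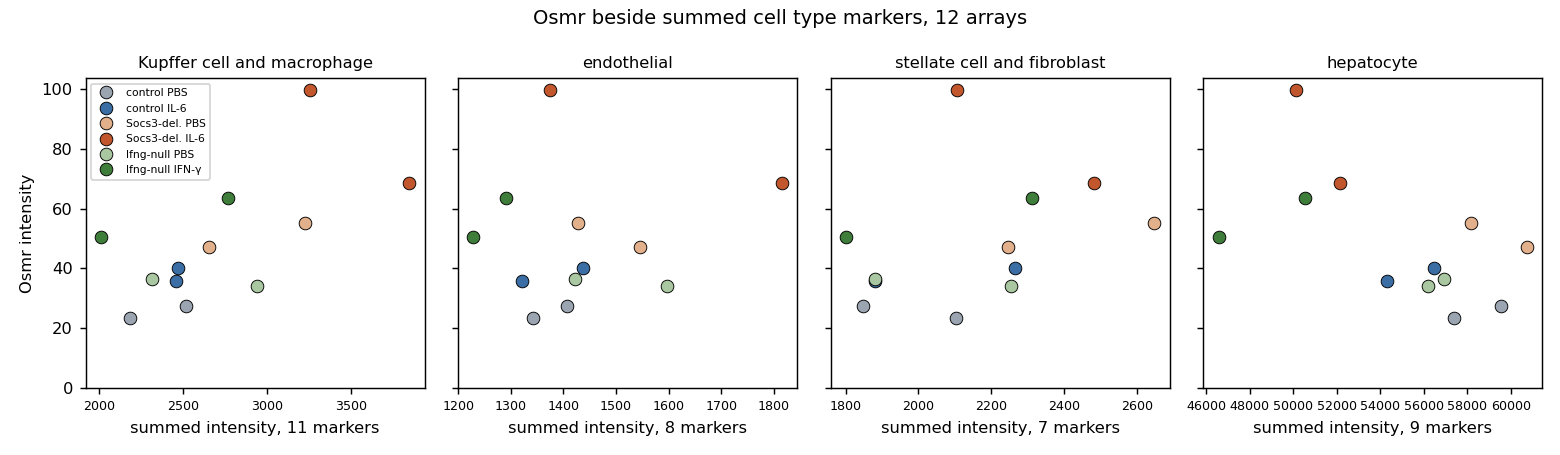
Osmr intensity (vertical axis) against the summed intensity of markers of 4 liver cell types (horizontal axes, linear) on the 12 arrays, coloured by group. The Socs3-deleted arrays after IL-6 have the highest Osmr values, 68.4 and 99.8, and the highest macrophage marker sums, 3846 and 3257, while the arrays after IFN-γ have Osmr values of 50.5 and 63.6 at macrophage sums of 2013 and 2770.

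Lifr, the chain that pairs with gp130 for leukemia inhibitory factor, was read by 5 probe sets, which did not all give the same pattern. The brightest, 104658_at, read 1545 and 2067 in control livers after PBS and 1061 and 2054 after IL-6. In Socs3-deleted livers it read 1626 and 2428 after PBS and 1459 and 1858 after IL-6. Ifng-null livers gave 1929 and 2504 after PBS and 2000 and 1849 after IFN-γ. All neighbouring groups in the order of means overlapped. The log2 change after IL-6 was -0.28 ± 0.31 in control and -0.27 ± 0.31 in Socs3-deleted livers (SE; limma, adjusted p = 1 and 0.924), with intervals of -0.98 to 0.42 and -0.97 to 0.43. The probe set 104659_g_at was designed on the same transcript and followed it with Pearson's r = 0.975 over the 12 arrays, so it is no independent reading. It read from 435 to 1045, and its log2 change after IL-6 was -0.18 ± 0.32 in control and -0.40 ± 0.32 in Socs3-deleted livers.

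The probe set 103697_at, designed on another transcript record, gave a different picture of Lifr. It read 442 and 344 in control livers after PBS and 140 and 378 after IL-6. Ifng-null values were 226 and 175 after PBS and 223 and 175 after IFN-γ. In Socs3-deleted livers it read 220 and 397 after PBS and 80.0 and 108 after IL-6, the lowest values of all 12 arrays. The log2 change after IL-6 in Socs3-deleted livers was -1.67 ± 0.43 (SE; 95% interval -2.63 to -0.70), 3.18-fold lower, and was not called (limma, adjusted p = 0.137). In control livers it was -0.76 ± 0.43 and the 2 responses differed by -0.91 with an interval of -2.28 to 0.46. The control IL-6 arrays lie far apart: without replicate 1 (140) the Lifr 103697_at response of control livers was -0.04 and the difference -1.62, and without replicate 2 (378) they were -1.47 and -0.19. Without the 2 pancreatic arrays the Lifr 103697_at change in Socs3-deleted livers was -1.24 and the difference -0.30. Averaged over both genotypes, with all 12 arrays fitted, the change after IL-6 was -1.21 ± 0.30 (limma, adjusted p = 0.141). This value came under the threshold without control IL-6 replicate 2 (-1.57; limma, adjusted p = 0.0209), and so did the response of Socs3-deleted livers without control IL-6 replicate 1 or 2 (0.0401 each).

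The Lifr probe sets 103697_at and 104658_at correlated with Pearson's r = 0.402 over the 12 arrays, and 103697_at with the dim 97006_s_at at 0.719. The fourth, 97006_s_at, lay near the floor of 33.0 at 31.8 to 41.2. Its lowest value, Socs3-deleted IL-6 replicate 1, was below the floor and entered the fit at it. Its highest values were those of control livers after PBS, 41.2 and 37.8. Its log2 change after IL-6 was -0.18 ± 0.10 in control and -0.04 ± 0.10 in Socs3-deleted livers. With the mean of the probe sets in place of the brightest one, the Lifr difference between Socs3-deleted and control livers after IL-6 turned from 0.16 to -0.28, so the direction for the gene depends on the probe set. Which transcripts each probe set detects was not tested.

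**Figure D3:**
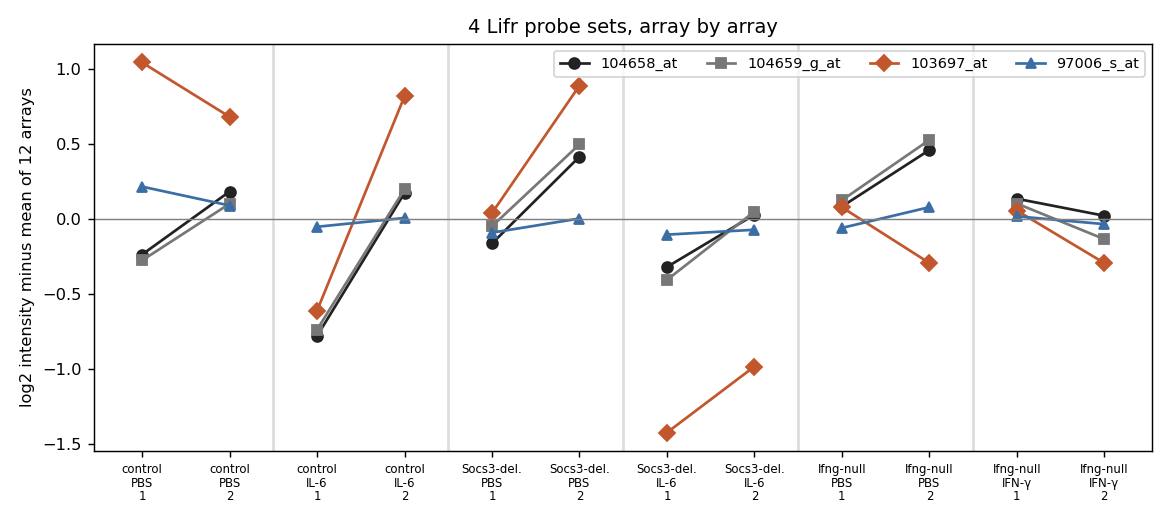
Log2 intensity of 4 Lifr probe sets on the 12 arrays (horizontal axis, by group and replicate), each minus its own mean over the arrays (vertical axis); lines join the 2 replicates of a group. The probe sets 104658_at and 104659_g_at run together, while 103697_at is lowest in Socs3-deleted livers after IL-6, at intensities of 80.0 and 108.

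Over all comparisons the members were called as follows, beside the share of the 9641 tested probe sets that limma called at an adjusted p under 0.05. For IL-6 against PBS in control livers no member of 8 was called and 0% of all probe sets were. At an unadjusted p under 0.05 it was 1 member, Il6st 94345_at, and 248 of the 9641 probe sets. For IL-6 in Socs3-deleted livers 0 of 8 members were called, beside 1.17% of all, with Osmr and Lifr 103697_at among 1044 probe sets under an unadjusted 0.05. The same 2 members were among 886 for IL-6 averaged over both genotypes, where 0 of 8 were called beside 1.06% of all. Where the 2 IL-6 responses were set against each other it was 0 of 8 beside 0.0415%, with no member among 380 probe sets under an unadjusted 0.05. After IFN-γ 0 of 8 were called beside 0.653%, with Il6st 94345_at and Osmr among 668 under an unadjusted 0.05.

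Between the genotypes, after PBS 0 of 8 members and 0% of all probe sets were called by limma. At an unadjusted p under 0.05 these were Il6st 94345_at and Osmr among the members, and 402 probe sets in all. After IL-6 1 of 8 members was called (12.5%) beside 0.954% of all, and averaged over both injections 1 of 8 beside 0.799%. At an unadjusted 0.05 these were 2 members (Osmr and Lifr 103697_at) among 876 probe sets after IL-6, and 4 (Il6ra, Il6st 94345_at, Osmr and Lifr 103697_at) among 944 averaged over both injections. Both calls are Osmr, and most calls among all probe sets were also higher in Socs3-deleted livers, 83 of 92 and 59 of 77. Osmr alone among the 8 members had all 4 Socs3-deleted arrays above all 4 control arrays, a pattern that 1.94% of the tested probe sets showed. Ifng-null against control livers after PBS gave 0 of 8 members beside 0% of all, with Lifr 103697_at (-0.97 ± 0.43) among 297 probe sets under an unadjusted 0.05. The F test over the 6 groups called 1 of 8 members, Osmr, beside 2.01% of all.

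**Figure D4:**
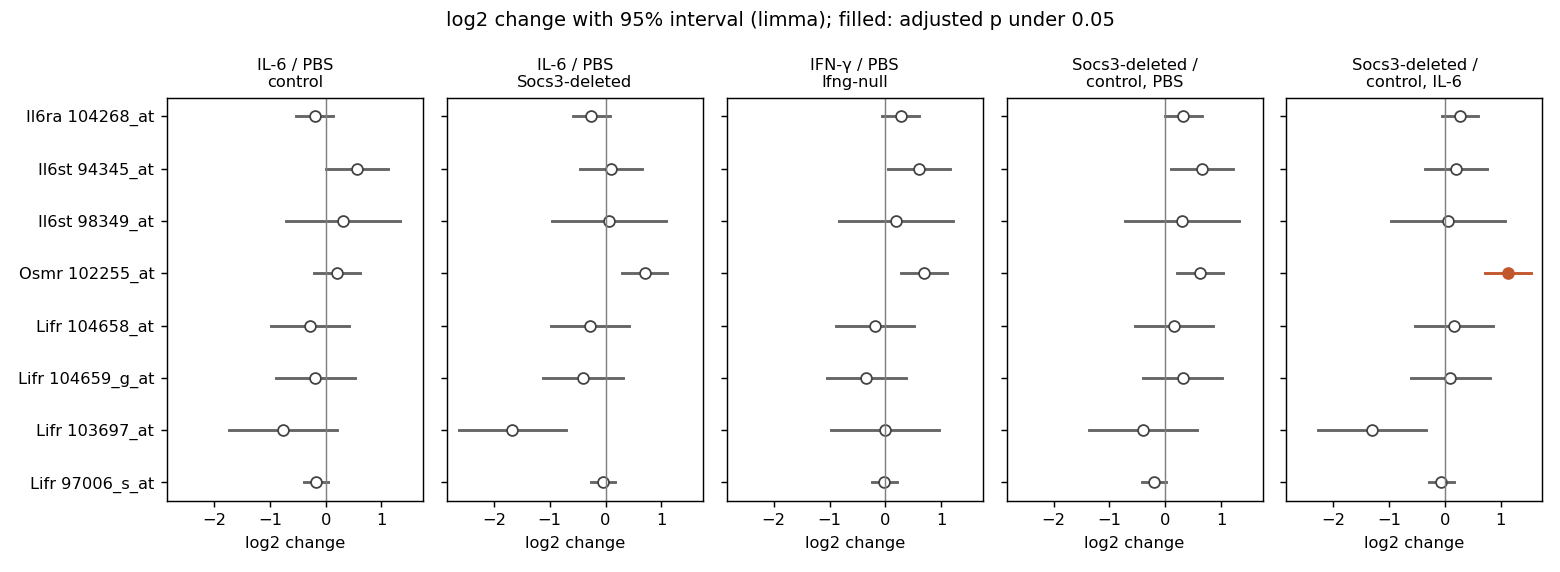
Log2 change (horizontal axes) of the 8 tested receptor subunit probe sets in 5 comparisons; points are limma estimates from 2 against 2 arrays, lines are 95% intervals, and filled points passed an adjusted p of 0.05. The single filled point is Osmr in Socs3-deleted against control livers after IL-6, at 1.13.

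The other parts of the pathway were followed with 1 probe set per gene, the brightest. Among the ligands, 3 of the 4 IL-6 family cytokines on the array were tested and none was called in any of the 9 comparisons. Averaged over both genotypes, cardiotrophin-1 (Ctf1) gave -0.16 ± 0.08 after IL-6 and Ebi3, a subunit of IL-27, gave -0.05 ± 0.10 (SE). Il6 itself did not pass the filter on low values. Of the 6 other receptors of the gp130 family on the array 4 were tested and none was called in any comparison: Csf3r, the receptor for granulocyte colony-stimulating factor, gave 0.06 ± 0.11 and Il27ra 0.04 ± 0.13. Between the genotypes 0.954% of all tested probe sets were called after IL-6 and 0.799% averaged over both injections. With shares this low, the absence of a call among 4 genes does not set Osmr apart from them.

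Downstream of gp130, 15 genes of JAK, STAT and MAPK signalling were tested. In Socs3-deleted livers 2 of them were called higher after IL-6 and none lower, beside 1.17% of all probe sets called. The median log2 change was 0.08 over the list and 0.00 over all probe sets. Jak2, a kinase bound to gp130, went from 47.0 ± 1.80 to 79.6 ± 1.41 (SD, n = 2), with a change of 0.76 ± 0.09 in log2 (SE; limma, adjusted p = 0.00608). Map2k1, the kinase MEK1, went from 155 ± 3.85 to 259 ± 18.0 (0.73 ± 0.11; limma, adjusted p = 0.0124). In control livers none of the 15 was called, nor was any other tested probe set, and Jak2 was 50.3 ± 3.08 after PBS and 51.0 ± 2.36 after IL-6. Where the 2 IL-6 responses were set against each other, none of the 15 was called. A difference between the responses of Jak2 or Map2k1 was thus not shown. After IL-6 both genes were also higher in Socs3-deleted than in control livers, Jak2 by 0.64 ± 0.09 and Map2k1 by 0.66 ± 0.11 (limma, adjusted p = 0.0194 and 0.0255). These 2 were the only genes of the list called in those comparisons and in the IL-6 response averaged over genotypes, and none was called after IFN-γ.

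Inhibitors of the pathway and enzymes that shed its receptors gave 12 tested genes. In Socs3-deleted livers 8 of the 12 changes after IL-6 were positive. Only Ptpn2, a phosphatase that removes phosphate from Janus kinases and STATs, was called, beside 1.17% of all probe sets. It went from 48.6 ± 4.03 to 98.4 ± 10.4 (log2 change 1.02 ± 0.20; limma, adjusted p = 0.0431). Socs1 (2.15 ± 0.78), Socs2 (1.45 ± 0.47) and the related phosphatase Ptpn1 (1.28 ± 0.29) had larger changes that were not called (limma, adjusted p = 0.326, 0.255 and 0.0824). After IL-6 Ptpn2 was also higher in Socs3-deleted than in control livers, by 1.03 ± 0.20 (limma, adjusted p = 0.0474), beside 0.954% of all probe sets called. Ptpn1 was called higher after IL-6 averaged over both genotypes (1.11 ± 0.20; limma, adjusted p = 0.0372), beside 1.06% of all probe sets. In the genotype comparison averaged over injections Socs3 was the 1 gene called, as given above, beside 0.799% of all probe sets. The list's median log2 change was 0.05 after IL-6 in Socs3-deleted livers.

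Of 32 hepatic IL-6 target genes on the array 30 were tested. None of the 30 was called after IL-6 in control livers, and none for the difference of the IL-6 responses. In control livers 25 of 30 changes after IL-6 were positive and the median was 0.57. In Socs3-deleted livers 24 were positive with a median of 0.22 and 2 were called, both higher, beside 1.17% of all probe sets. These were A2m, the acute phase protease inhibitor alpha-2-macroglobulin (3.97 ± 0.78; limma, adjusted p = 0.0496), and Bcl3, a regulator of NF-kB (1.29 ± 0.20; limma, adjusted p = 0.016). Averaged over both genotypes 3 were called after IL-6, all higher, beside 1.06% of all probe sets. These were the serum amyloid gene Saa3 (2.93 ± 0.52), Lcn2, which encodes the iron-siderophore binding protein lipocalin-2 (2.66 ± 0.47), and Bcl3 (0.98 ± 0.14) (limma, adjusted p = 0.0307, 0.0309 and 0.0145). After IFN-γ 1 gene was called, the adhesion molecule Icam1, which was higher (1.61 ± 0.23; limma, adjusted p = 0.0172), beside 0.653% of all probe sets. The list's median was then 0.22.

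In Socs3-deleted against control livers, averaged over both injections, 30 of the 30 target genes had a positive difference, with a median of 0.59 against -0.02 for all probe sets. Of these, 5 passed the test, beside 0.799% of all probe sets. These were Lcn2 (3.34 ± 0.47), Cebpd, a C/EBP transcription factor (1.66 ± 0.23), Lbp, the lipopolysaccharide-binding protein (0.87 ± 0.15), Bcl3 (0.75 ± 0.14) and Itih3, an inter-alpha-inhibitor heavy chain (0.63 ± 0.09), with limma adjusted p from 0.0142 to 0.0489. Osmr was at 0.87 in the same comparison. These 5 genes were picked by the threshold that Osmr also passed, so their range is no independent measure for Osmr. After IL-6 alone 27 of 30 were positive with a median of 0.30, and 2 were called, beside 0.954% of all probe sets. These were Cebpd (2.28 ± 0.32; limma, adjusted p = 0.0194) and Bcl3 (1.06 ± 0.20; limma, adjusted p = 0.0439). After PBS alone 28 of 30 were positive with a median of 0.59, and none was called. Lcn2 was then 1457 ± 638 in Socs3-deleted and 42.6 ± 15.5 in control livers (SD, n = 2 each). In each of these 2 PBS groups 1 array carries the pancreatic signal.

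Among 18 tested receptors for other cytokines, only Il17ra, the IL-17 receptor chain, was called after IL-6 in Socs3-deleted livers, beside 1.17% of all probe sets. It went from 201 ± 52.2 to 915 ± 232 (2.19 ± 0.37; limma, adjusted p = 0.0246). Averaged over both genotypes Il17ra (1.52 ± 0.26; limma, adjusted p = 0.0289) and Tnfrsf1a, a receptor for tumour necrosis factor (0.79 ± 0.14; limma, adjusted p = 0.0362), were called higher after IL-6, beside 1.06% of all probe sets. None of the 18 was called between the genotypes.

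The calls of these pathway genes, 26 over all comparisons, depended on single libraries as those of Osmr did, while the sizes of the changes moved less. Without the 2 arrays with pancreatic signal, which leaves 1 array in each of 2 PBS groups, 0 of the 26 passed the limma threshold, with changes at 0.752 to 1.08 times their log2 size. A2m after IL-6 in Socs3-deleted livers was 4.05 against 3.97 with them, and Jak2 0.80 against 0.76. Leaving out 1 array kept from 3 of the 26 calls (without Socs3-deleted IL-6 replicate 2) to 19 (without Ifng-null IFN-γ replicate 1). In the alternatives run, A2m was called in 9 of 23, Map2k1 averaged over genotypes in 6 of 23, Ptpn2 in 7 of 23 after IL-6 in Socs3-deleted livers and 6 of 23 between genotypes, and Bcl3 in 6 of 23 between genotypes after IL-6 and 5 of 23 averaged over injections. At the 50th-percentile floor the changes of Ptpn2 were 0.227 in both comparisons and that of Icam1 0.528.

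**Figure D5:**
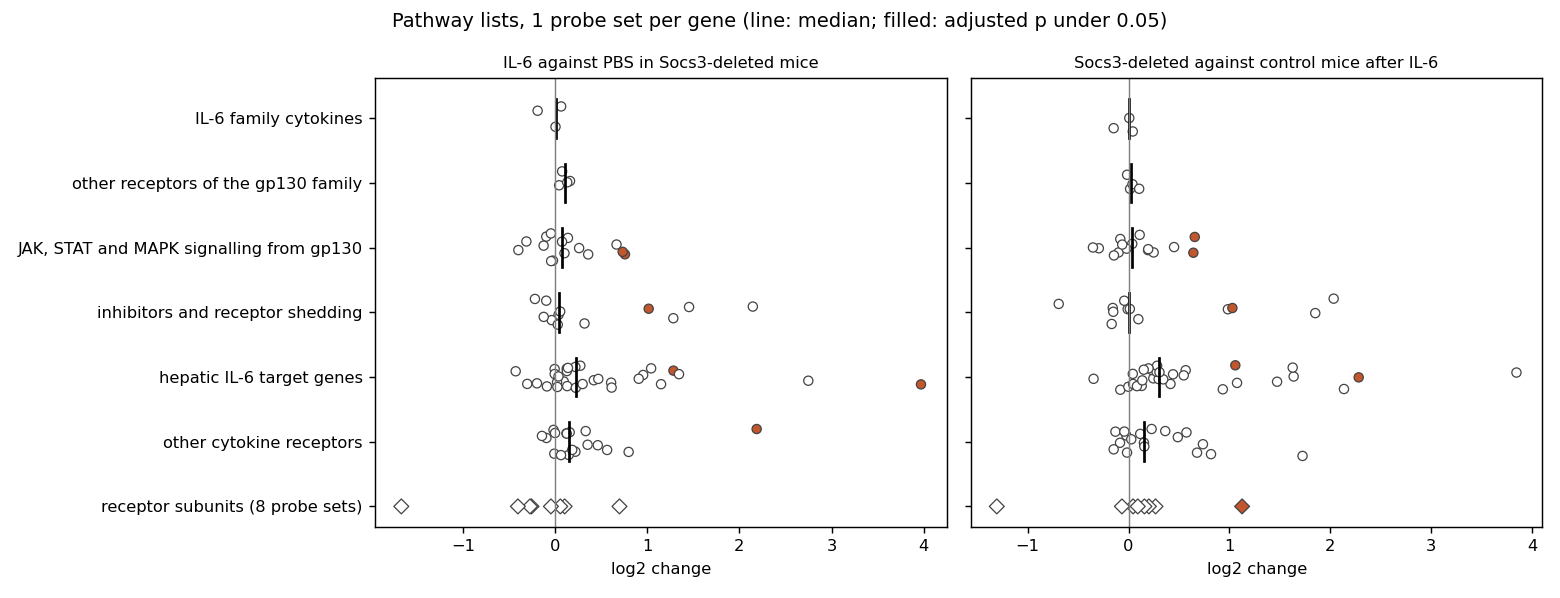
Log2 change (horizontal axes) of each tested gene of the pathway lists, after IL-6 in Socs3-deleted livers (left) and in Socs3-deleted against control livers after IL-6 (right); points are 1 probe set per gene, lines are list medians and filled points passed an adjusted p of 0.05. On the right the filled receptor subunit is Osmr at 1.13. The filled list genes are Cebpd at 2.28, Bcl3 at 1.06, Ptpn2 at 1.03, Map2k1 at 0.66 and Jak2 at 0.64.

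The genes whose log2 values ran most like each member's brightest probe set over the 12 arrays are given as a description, with Pearson's r and no test, since arrays of a group share their treatment. For Osmr these were Clic4 (0.930), Gpc4 (0.928) and Mycbp2 (0.925). For Il6ra they were Nfkbiz (0.927), Nfil3 (0.896) and Cdkn1a (0.821), and for Il6st Tirap (0.933), Serpina10 (0.927) and Hp (0.900). Lifr had no gene as close, with Emcn at 0.766, Hsd3b2 at 0.754 and Avpr1a at 0.754. Serpina10 ran from 816 to 3892 and Hp, the acute phase protein haptoglobin, from 9189 to 13564 over arrays on which Il6st ran from 171 to 442.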

How the data were processed

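Liver total RNA was measured on 12 Affymetrix mouse arrays. The authors deposited linear signal intensity values, 1 for each probe set on each array; the software, background correction and scaling the authors used are not given in the sources used here, and the values were used as deposited. The 66 control probe sets of 12488 were dropped. Intensities under a floor of 33.0, the 25th percentile of all values, were raised to it before taking log2, which understates changes of dim genes. Probe sets above the floor on at least 2 arrays were tested (9641).

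With R 4.3.3 and limma 3.58.1, 6 group means were fitted to all 12 arrays (lmFit, contrasts.fit, eBayes; 6 residual and 3.38 prior degrees of freedom), with two-sided tests, Benjamini-Hochberg adjustment over all tested probe sets and a threshold of 0.05. Folds are of log2 means; group levels are arithmetic means. The code was tested on simulated data.

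The members and gene lists were chosen with earlier results of these data known. Named were all member probe sets, Socs3, per list up to 4 called genes in a comparison or, where none was called, up to 2 with the largest change after IL-6, and the 3 genes most correlated with each member; Cd14 and Itih3 were added after their values were seen. Symbols came from the platform annotation (10833 probe sets with 1 symbol, 396 with several, 1193 with none), and promoters from a RefSeq table, which held all 4 members. Alternatives were other floors, filters and normalizations, limma with an intensity trend or array weights, a replicate block, only the arrays compared, the mean of a gene's probe sets, and leaving out arrays.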

Additional observations from a re-analysis of the deposited data

How the results depend on the processing

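All values are log2 changes from limma, and p-values are its adjusted ones. In the 23 alternatives that tested Osmr, its difference between Socs3-deleted and control livers after IL-6 stayed positive and was called in 13 (0.85 to 1.40; adjusted p 0.00916 to 0.32), and that averaged over both injections in 15 (0.74 to 1.07; 0.00837 to 0.245). The member count of these 2 comparisons and of the F test went from 1 to 0 with no filter (Osmr adjusted p = 0.159, 0.138 and 0.197), without the 2 arrays with pancreatic signal (0.106, 0.245 and 0.167) and at the 50th-percentile floor, where Osmr is not tested. With only the arrays compared the first 2 counts were 0 (0.32 and 0.0599). Leaving out 1 array gave counts of 0 to 1 in these comparisons and in the IL-6 responses of Socs3-deleted livers and of both genotypes. The F test lost Osmr without control PBS, control IL-6 or Ifng-null PBS replicate 1 or 2, or Socs3-deleted IL-6 replicate 2 (adjusted p 0.0519 to 0.0824), and the IL-6 response of Osmr in Socs3-deleted livers was called without Socs3-deleted IL-6 replicate 1 (0.97; 0.0436). With the replicate block Osmr after IL-6 was 1.13 (adjusted p = 0.0174), and the block changed no member call and kept 23 of 26 calls of pathway genes. The numbers were not taken to pair the arrays: deviations of same-numbered arrays correlated from -0.254 to 0.665 over the 15 pairs of groups, over 0.1 in 8, with the highest value between the 2 Ifng-null groups. Over all probe sets, calls ranged from 0 (only the arrays compared) to 223 (array weights) around 92 for Socs3-deleted against control after IL-6, and from 6 (without the 2 pancreatic arrays) to 142 (array weights) around 77 averaged over injections. They ranged from 1 to 160 around 113 for IL-6 in Socs3-deleted livers, 4 to 142 around 102 for both genotypes, 8 to 71 around 63 for IFN-γ, 0 to 15 around 4 for the difference of responses, 32 to 226 around 194 for the F test, and 0 to 8 around 0 for IL-6 in control livers and for the genotypes after PBS.

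Of 1703 single values recomputed, 1380 kept direction and call, 288 lost the call, 4 gained it and 31 changed sign. Among pathway genes, with no filter 4 of 26 calls held, and 3 when only the arrays compared were fitted. No changed sign belonged to a called value, and the cause was not tested. Signs changed for Lifr 103697_at after IFN-γ under quantile normalization (0.00135); without the 2 pancreatic arrays for Lifr 104658_at after IL-6 in Socs3-deleted livers (0.0177) and for the difference of IL-6 responses of Il6ra (0.0441) and Il6st (0.162); and with the mean of the probe sets for Lifr: difference of responses -0.248, genotype after PBS -0.0325, after IL-6 -0.28, averaged -0.156, and Ifng-null against control -0.1. Leaving out 1 array turned these: Lifr 104658_at after IL-6 in control (-0.753 to 0.2) and Socs3-deleted livers (-0.56 to 0.0177), its difference of responses (-0.472 to 0.481) and its genotype difference after PBS (-0.136 to 0.442), after IL-6 (-0.319 to 0.634) and averaged (-0.0829 to 0.394); Lifr 103697_at after IFN-γ (-0.197 to 0.174) and between genotypes after PBS (-0.822 to 0.0267); the Il6ra difference of responses (-0.157 to 0.0468) and Ifng-null against control livers for Il6ra (-0.281 to 0.156) and Il6st (-0.419 to 0.349); and Il6st after IL-6 in Socs3-deleted livers (-0.128 to 0.338) and between genotypes after IL-6 (-0.0215 to 0.425).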
